A study of Mus musculus with 28 samples.

Results

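Of the 28661 features counted in these libraries, 251 (0.876%) had higher levels in hippocampal neurons sampled from tissue than in cultured hippocampal neurons, by each of the collection methods used. A feature is 1 row of the count tables: a UCSC known-gene identifier, or several isoform identifiers joined into 1 name. Levels are in CPM, the counts per 1000000 assigned reads of a library. A feature became a member when its mean log2(CPM + 10) was higher in tissue than in culture by 1 or more among neurons captured by TIVA, and again by 1 or more among neurons collected by pipette. The members were thus chosen by the levels in the 15 hippocampal single-neuron libraries, whose values are given below as a description. The cortical and bulk libraries were not used in that choice.

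All libraries came from C57BL/6 mice. Cultured neurons had spent 7 to 9 days on coverslips, and tissue neurons came from acute coronal slices of animals 8 to 10 days old. The hippocampal groups were 5 tissue neurons by TIVA, 3 tissue neurons by pipette, 4 cultured neurons by TIVA, 3 cultured neurons by pipette and 3 bulk tissue libraries. The cortical groups were 2 tissue neurons by TIVA, 4 cultured neurons by TIVA and 4 cultured neurons by pipette. TIVA (transcriptome in vivo analysis) loads cells with a caged tag, and laser light on a chosen cell frees the tag to bind the poly(A) tails of that cell's RNA. The protocol has the imaged field around a lit cell aspirated along with it. The tag was at 10 µM for 15 min in culture and 30 µM for 90 min in tissue, with the laser at 30% and 80% power, so dose, loading time and laser power differ together with setting. Pipette and bulk libraries are labelled untreated. The protocol text of the hippocampal tissue pipette neurons describes TIVA capture, and that of the cortical tissue neurons mentions the hippocampal CA1 area, and in both cases the source label was followed. No animal, culture or sequencing batch is named, so batch effects and group differences cannot be told apart. Each neuron is 1 cell, cells are not replicates, and no test was run. SDs below are spreads over libraries.

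A hippocampal neuron in an acute slice keeps its place in the circuit, its glial neighbours and much of its dendritic tree, although slicing itself cuts processes and injures tissue. A dissociated neuron loses its processes at plating and regrows them on glass, among other cells whose layering is lost. Culture and slice neurons of similar nominal age can thus stand at different points of maturation.

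The files do not pair identifiers with gene symbols, and 0 of the 55419 single identifiers matched the gene tables used here. What each member encodes, and whether neuronal or glial marker genes moved with the set, was therefore not tested. No more than 2 identifiers are printed for each direction, and other members are described by their rank.

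In units of 1000000 reads (M), assigned reads ran from 5.30 to 59.0 M per library. The cortical tissue neurons were shallow, at 7.89 and 5.30 M, where 3 reads equal 0.380 and 0.567 CPM. A level of 3 reads is used below as an approximate upper limit for a count of 0, from counting error only. Hippocampal tissue neurons had 24.1 to 33.4 M by TIVA and 6.64 to 11.6 M by pipette, and cultured neurons had 9.13 to 32.9 M. Reads outside any feature made up 15.8% to 39.2% of counted reads in tissue neurons and 43.4% to 81.1% in the cultured cortical neurons. In cultured hippocampal neurons they were 19.9% to 38.4% by TIVA and 31.5% to 75.3% by pipette. The 50 most abundant features of a library took 25.2% to 66.6% of reads in cultured hippocampal TIVA neurons and 16.0% to 34.1% in tissue neurons. The part of these differences in the results below was not tested beyond the alternative scalings given with them.

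The collections differed in how many features passed the rule. By TIVA, 1671 features were higher in tissue by 1 or more (5.83% of all features) and 852 lower. By pipette, 738 were higher (2.57%) and 3345 lower. The 251 members are 15.0% of the first set and 34.0% of the second. Another 423 features were higher in tissue by TIVA and lower by 1 or more by pipette. Just inside the limit, the 3 members nearest to it had a smaller difference of 1.0005, 1.0022 and 1.0031. The 3 nearest features outside had 0.9978, 0.9977 and 0.9942.

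**Figure D1:**
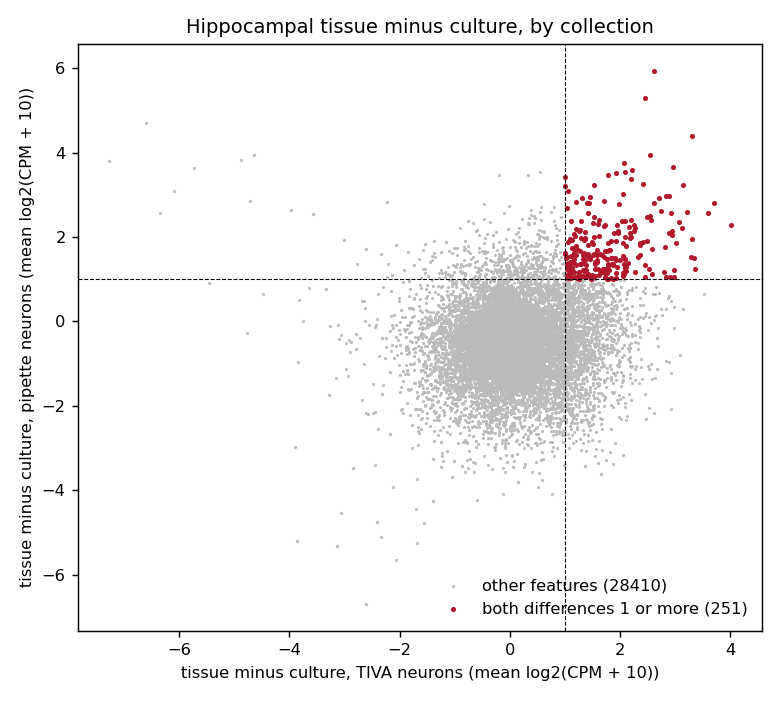
Difference in mean log2(CPM + 10) between hippocampal tissue and cultured neurons for each feature, by TIVA (horizontal axis) and by pipette (vertical axis), with members in red and dashed lines at the limit of 1. The 251 members fill the upper right corner, and more features lie below −1 by pipette (3345) than by TIVA (852).

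Members differed widely in how far they exceeded culture. Their median difference was 1.62 by TIVA and 1.56 by pipette, and the highest were 4.02 and 5.95. In 39 members both differences were 2 or more, and in 2 both were 3 or more. The TIVA difference was the larger in 131 members and the pipette difference in 120. Levels of every TIVA tissue neuron lay above every cultured TIVA neuron in 75 members, and 1.73% of all features met this with a difference of 1 or more. For pipette neurons the count was 168, against 1.36% of all features. Both held in 55 members (0.192% of all features, 0.903% of those at 10 CPM or more in both hippocampal tissue groups). In 31 members all 8 tissue neurons lay above all 7 cultured neurons, and no other feature met this (0.108% and 0.509%). These shares follow from the choice of members and are given for scale.

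Members were mostly expressed in culture as well, at lower levels. The median member had a group mean of 186 CPM in hippocampal tissue neurons by TIVA and 260 CPM by pipette, against 40.7 and 47.8 CPM in the cultured neurons. In 148 members every cultured hippocampal neuron was at 10 CPM or more. In 16 members every cultured neuron was below 10 CPM, and in 2 of these below 1 CPM. No member had 0 reads in all 7 cultured neurons. Other features were not counted at these levels, so the numbers describe the members only.

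The 2 members that led the set, ranked by the smaller of the 2 differences among members with 10 or more reads in every tissue neuron and no overlap in either collection, were uc008jee.2 and uc007vrn.1. In hippocampal tissue, uc008jee.2 was at 161, 616, 90.1, 63.9 and 106 CPM by TIVA and at 419, 318 and 432 CPM by pipette. In hippocampal culture it was at 3.35, 5.60, 3.91 and 11.6 CPM by TIVA and at 5.46, 25.6 and 2.07 CPM by pipette. Every tissue neuron thus lay above every cultured one, and the second TIVA neuron stood far above the other tissue TIVA neurons. Tissue means were 207.5 ± 231 CPM by TIVA (SD, n = 5) and 389.6 ± 62.2 CPM by pipette (SD, n = 3). Mean levels were 33.9-fold higher in tissue by TIVA and 35.3-fold higher by pipette, with log2 differences of 3.30 and 4.40.

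Outside the libraries that chose it, uc008jee.2 was low. It had 0 reads in both cortical tissue neurons, where the approximate counting limit for 0 reads is 0.380 and 0.567 CPM. Cultured cortical neurons had 2.04, 4.71, 0.388 and 1.54 CPM by TIVA, and 0, 0, 0 and 34.0 CPM by pipette, so 1 pipette neuron held all reads of that group. Bulk hippocampus was at 54.7, 9.37 and 23.9 CPM, and every bulk library lay above every cultured cortical TIVA neuron. No cortical neuron reached 63.9 CPM, the lowest level in hippocampal tissue neurons, and the cortical tissue side of that comparison is 2 cells.

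The second leading member, uc007vrn.1, varied more among the pipette neurons of tissue. In hippocampal tissue it was at 1110, 178, 159.9, 213 and 66.0 CPM by TIVA and at 36.9, 332 and 141 CPM by pipette. In hippocampal culture it was at 17.0, 4.38, 6.53 and 57.5 CPM by TIVA and at 6.17, 4.42 and 2.67 CPM by pipette. Tissue and culture did not overlap within a collection, but the lowest tissue pipette neuron lay below the highest cultured TIVA neuron. The log2 differences were 3.15 by TIVA and 3.23 by pipette.

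In cortex the order of uc007vrn.1 depended on the cell. The 2 tissue neurons were at 234 and 1.89 CPM, and cultured TIVA neurons at 54.0, 148, 398 and 81.6 CPM. Its cortical tissue minus culture difference was −1.37, and it was 0.81 without the second tissue neuron. Cultured cortical pipette neurons were at 22.9, 8.33, 19.4 and 51.0 CPM, and bulk hippocampus at 19.7, 163 and 148 CPM.

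**Figure D2:**
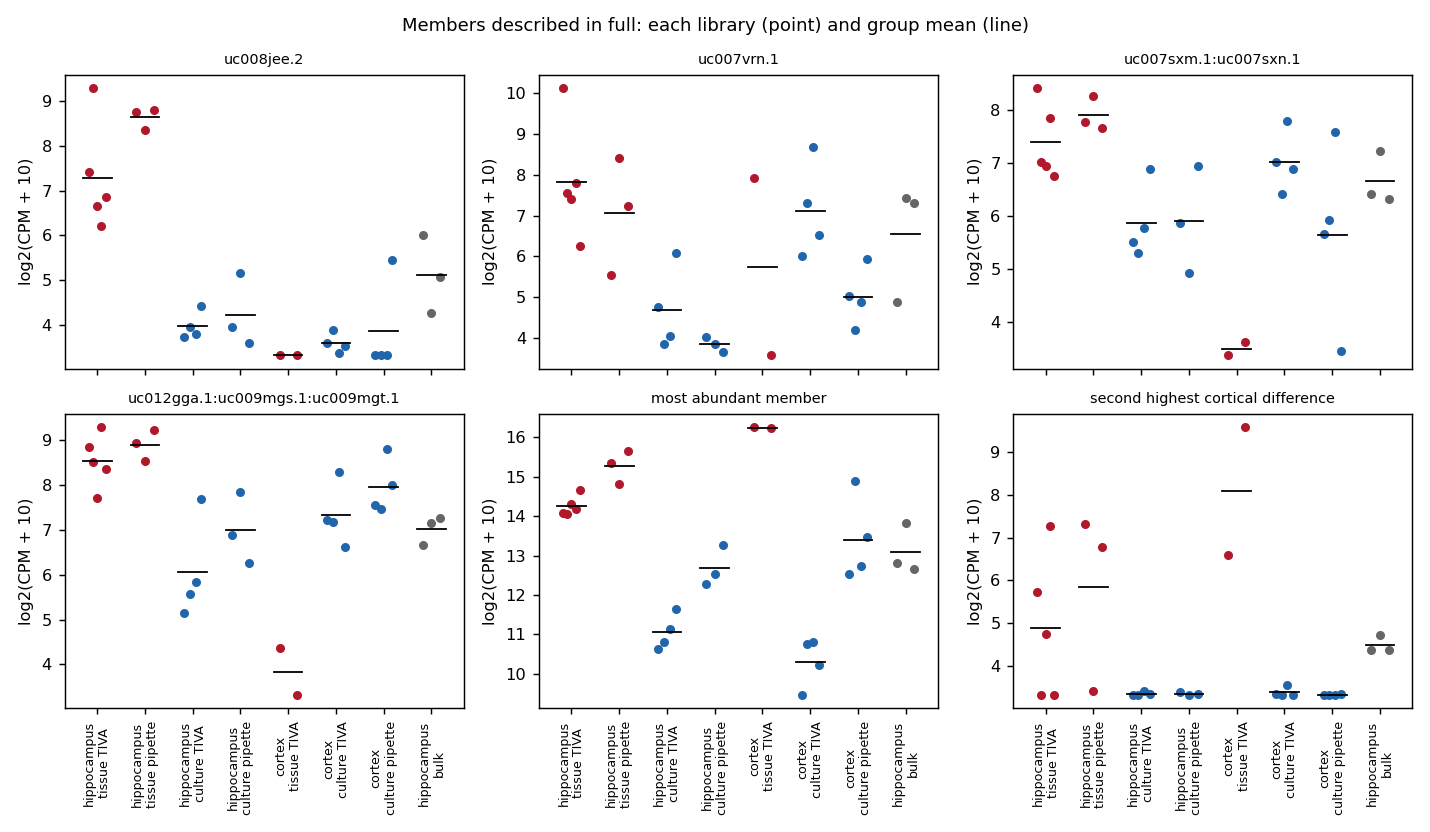
Level of 6 members in each library, as log2(CPM + 10), with a point for each library and a line at the mean of its group. The first pair of panels holds the leading members, the next pair the members lowest in cortical tissue relative to culture, and the last pair those highest there. In all 6 panels the hippocampal tissue means lie above the hippocampal culture means, whereas cortical tissue has the lowest mean of any group in 3 panels and the highest in 2.

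The most abundant member stood apart from the rest, and is described because it ranked first in the cortical comparison. It took 1.74%, 1.69%, 2.02%, 1.86% and 2.62% of assigned reads in the hippocampal tissue TIVA neurons and 4.21%, 2.86% and 5.19% in the pipette neurons. In hippocampal culture it took 0.157%, 0.176%, 0.222% and 0.320% by TIVA and 0.494%, 0.586% and 0.984% by pipette. It was the first-ranked feature of all 8 hippocampal tissue neurons. The cortical tissue neurons, which the rule did not use, gave 7.82% and 7.76%, and it was again ranked first in both, as it was in 2 of the cultured cortical pipette neurons.

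Cultured cortical TIVA neurons gave 0.0697%, 0.173%, 0.177% and 0.118% of reads to this member, and cultured cortical pipette neurons 0.593%, 3.02%, 0.676% and 1.13%. Cortical tissue was thus 58.0-fold above cultured TIVA neurons and 5.76-fold above cultured pipette neurons, without overlap in either case. Bulk hippocampus, at 0.714%, 1.44% and 0.645%, overlapped the cultured cortical pipette neurons and lay above the cultured cortical TIVA neurons. Cultured neurons themselves differed by collection, since the pipette mean was 10.1-fold above the TIVA mean in cortex and 3.14-fold above it in hippocampus.

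Summed over all members, tissue neurons gave the set a larger share of their reads than culture or bulk tissue did. In hippocampal tissue the share was 14.0%, 15.1%, 13.1%, 13.7% and 11.6% by TIVA and 19.1%, 16.4% and 18.3% by pipette. In hippocampal culture it was 3.35%, 1.75%, 2.11% and 5.23% by TIVA and 4.27%, 4.38% and 5.57% by pipette. Those values follow from the rule, and their means were 13.5% ± 1.27 (SD, n = 5) and 17.97% ± 1.39 (n = 3) in tissue and 3.11% ± 1.57 (n = 4) and 4.74% ± 0.721 (n = 3) in culture. In the libraries that the rule did not use, cortical tissue neurons gave 18.1% and 19.9%, cultured cortical TIVA neurons 2.93%, 3.97%, 6.06% and 2.40%, and cultured cortical pipette neurons 5.78%, 9.59%, 5.62% and 6.35%. Bulk hippocampus gave 5.70%, 7.90% and 6.92%.

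The cortical share was held by few members. Of the mean share of 19.0% in cortical tissue, 3 members sufficed to hold 50%, whereas 24 members were needed to reach 50% in cultured cortical TIVA neurons and 17 in hippocampal tissue TIVA neurons. Without the most abundant member, the other 250 took 10.3% and 12.2% of reads in the cortical tissue neurons, still above the 2.28% to 5.88% of cultured cortical TIVA neurons and the 4.95% to 6.57% of cultured cortical pipette neurons. Outside each library's 50 most abundant features, members took 8.27% of the remaining reads in cortical tissue, against 5.03% in cultured cortical TIVA neurons and 4.81% in cultured cortical pipette neurons. Those top features took 24.6% to 61.5% of reads in the cultured cortical TIVA neurons and 29.9% and 34.1% in cortical tissue, and the gap between these groups was narrower without them. The features at 10 CPM or more on average in both hippocampal tissue groups, 6089 in number and including all 251 members, took 93.3% and 95.0% of reads in cortical tissue neurons and 83.1% to 94.0% in the cultured cortical libraries.

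**Figure D3:**
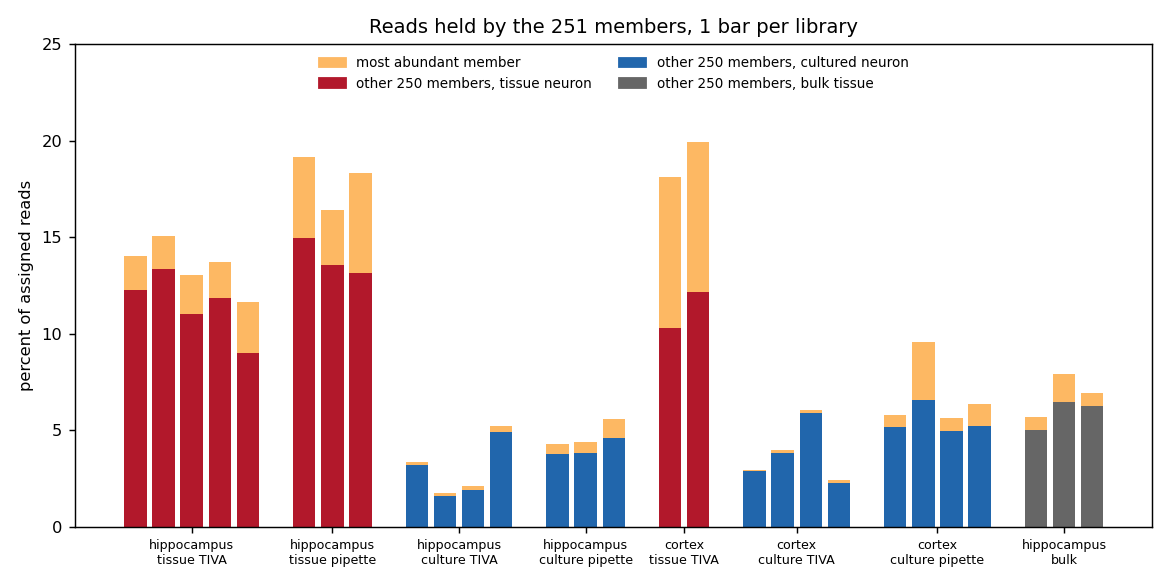
Percent of assigned reads held by the 251 members in each of the 28 libraries, 1 bar per library, with the most abundant member in orange and the other 250 below it. The bars of tissue neurons, the cortical ones included, run from 11.6% to 19.9%, and all cultured and bulk bars lie below 10%.

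Whether members were also higher in cortical tissue was examined between cortical TIVA neurons of tissue and culture, none of which chose the set. Of the 251 members, 76 were higher in tissue by 1 or more, 63 were lower by 1 or more, and 112 lay between. Over all features 3.53% were higher and 15.4% lower. Among the 6089 features at 10 CPM or more in hippocampal tissue neurons these shares were 12.4% and 43.4%, against 30.3% and 25.1% of members. The median difference was 0.04 over members and −0.79 over the 6089 features. Tissue and culture did not overlap in 49 of the 76 higher members and in 46 of the 63 lower ones, where 1.85% and 13.1% of all features, and 7.8% and 34.1% of the 6089, did so.

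This split depended on scaling and pseudocount, and the median of the 6089 features moved with it. With TMM scaling 100 members were higher and 54 lower, beside 18.9% and 36.4% of the 6089 features, whose median was −0.52. With DESeq2 size factors the counts were 138 and 39, beside 33.5% and 23.6% and a median of 0.13. With CPM over reads outside each library's 50 top features they were 66 and 82, beside 10.1% and 53.9% and a median of −1.15. The pseudocount moved it too: 72 members were higher and 94 lower at 1 CPM (12.5% and 61.5% of the 6089), and 74 and 77 at 5 CPM (12.5% and 52.0%). Under each of these settings a larger share of members than of the 6089 features was higher, and a smaller share was lower.

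The contrast with other features varied with level. Among members with 1000 CPM or more on average over the hippocampal tissue groups, 18 of 25 (72.0%) were higher in cortical tissue and none was lower by 1 or more. Of the 102 features at that level, members included, 52.0% were higher and 16.7% lower. From 200 to 1000 CPM, 33.0% of 112 members and 26.0% of 922 features were higher, and 25.9% and 29.6% were lower. From 50 to 200 CPM, 19.2% of 99 members and 11.1% of 2675 features were higher, and 32.3% and 47.0% were lower. Below 50 CPM there were 15 members, of which 2 were higher (13.3%, against 6.82% of 2390 features) and 2 lower (13.3%, against 45.7%). The ratio of members to features among those higher was nearer to 1 within each level range than over all 6089 features. Among those lower it was not, since the contrast was wider below 50 CPM and at 1000 CPM or more.

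**Figure D4:**
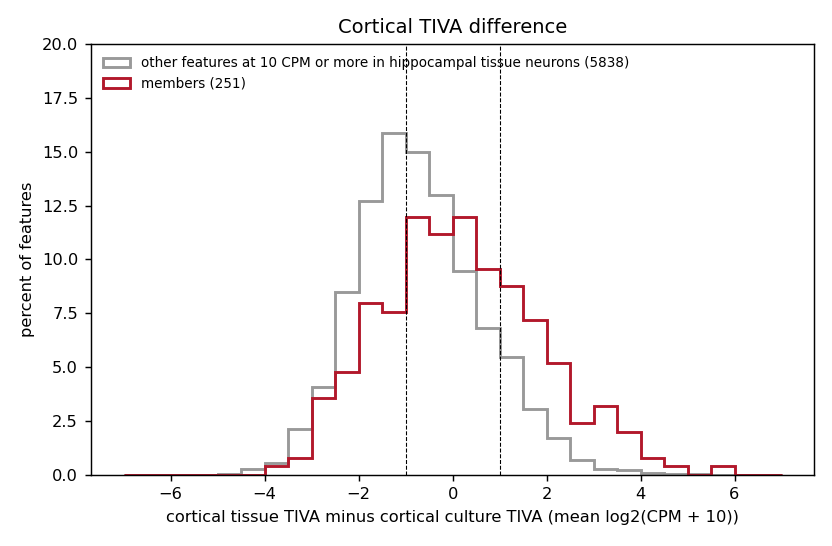
Distribution of the cortical tissue minus culture difference in mean log2(CPM + 10) among TIVA neurons, as percent of the 251 members (red) and of the other features at 10 CPM or more in hippocampal tissue neurons (grey), in steps of 0.5 with dashed lines at −1 and 1. Members lie to the right of the other features and spread on both sides of 0, with a median of 0.04.

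The 2 cortical tissue neurons did not give the same members. Set against the mean of the cultured TIVA neurons, 84 members were higher by 1 or more in the first neuron and 76 in the second, and 41 were higher in both. In the other direction 66 and 93 members were lower, and 42 were lower in both. A further 32 members were higher by 1 or more in 1 neuron and lower by 1 or more in the other. Among the 6089 features, 20.9% were higher in the first neuron and 16.4% in the second, and 40.7% and 56.3% were lower. Of these features 5.96% were higher in both neurons, 29.5% lower in both, and 13.5% went opposite ways. At 10 CPM or more, 179 and 148 members were found in the 2 neurons, and 132 in both. The 6089 features were not counted at that level, so these numbers describe the members only. There were 32 members below 1 CPM in both neurons (12.7%), against 16.1% of the 6089 features.

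Against cultured cortical pipette neurons, the same 2 tissue neurons had 61 members higher by 1 or more (3.1% of all features, 9.28% of the 6089) and 62 lower (16.4% and 48.3%). With TMM scaling these counts were 94 and 45, beside 16.9% and 38.5% of the 6089. With DESeq2 size factors they were 125 and 34, beside 26.1% and 32.7%, and outside the 50 top features 73 and 59, beside 12.2% and 46.8%. Both cortical comparisons use the same tissue cells.

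The members lowest in cortical tissue relative to culture, among those with 10 or more reads in every cultured TIVA neuron and no overlap, were uc007sxm.1:uc007sxn.1 and uc012gga.1:uc009mgs.1:uc009mgt.1. In cortex, uc007sxm.1:uc007sxn.1 was at 0.253 and 2.27 CPM in tissue, from 2 and 12 reads, and at 119, 74.9, 213 and 108 CPM in cultured TIVA neurons. The tissue values lay below all cultured TIVA neurons, with a log2 difference of −3.54. Cultured pipette neurons were at 40.3, 50.2, 181 and 0.868 CPM, so their lowest cell overlapped the tissue neurons.

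In hippocampus the group means of the same member had the opposite order. Tissue neurons were at 333, 119.6, 113, 220.5 and 98.4 CPM by TIVA and at 210, 298 and 193 CPM by pipette. Cultured neurons were at 35.5, 29.5, 44.8 and 109 CPM by TIVA and at 48.0, 20.3 and 114 CPM by pipette. The TIVA groups overlapped, because the fourth cultured neuron lay above the fifth tissue neuron, and the pipette groups did not. Bulk hippocampus was at 74.8, 139.9 and 69.9 CPM, within the range of the cultured cortical libraries.

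The other, uc012gga.1:uc009mgs.1:uc009mgt.1, was at 10.5 CPM in the first cortical tissue neuron and had 0 reads in the second. Cultured cortical neurons were at 138, 134, 302 and 87.5 CPM by TIVA and at 178, 166, 435 and 244 CPM by pipette, all above both tissue neurons. The log2 difference from the cultured TIVA neurons was −3.48. Hippocampal tissue neurons were at 452, 357, 199, 613 and 317 CPM by TIVA and at 477, 362 and 589 CPM by pipette, against 25.5, 37.2, 47.3 and 197 CPM and 108, 219.7 and 66.8 CPM in culture. Here no cultured hippocampal neuron overlapped the tissue neurons of its collection, although by TIVA the margin was narrow, at 199 against 197 CPM. Bulk hippocampus was at 91.1, 132 and 143 CPM.

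The member second in the cortical order from the top was nearly silent in every cultured library. It was at 86.3 and 755 CPM in the cortical tissue neurons and between 0 and 1.75 CPM in the 15 cultured neurons. In hippocampal tissue it was at 43.2, 0, 17.0, 143 and 0.0377 CPM by TIVA and at 149, 0.602 and 99.9 CPM by pipette, so 3 of 8 neurons held almost none. Bulk hippocampus was at 10.5, 16.4 and 10.6 CPM. Bulk tissue thus lay above every cultured neuron and within the range of the hippocampal tissue neurons.

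Bulk hippocampus was set against cultured cortical neurons, a comparison in which neither side chose the members but region and setting differ together. Bulk tissue holds neurons and glia, and fewer cells of a type and less RNA per cell cannot be told apart in it. Against cultured cortical TIVA neurons, 73 members were higher in bulk by 1 or more and 4 lower, where 3.09% and 0.461% of all features and 11.3% and 0.805% of the 6089 were. Against cultured cortical pipette neurons, 80 members were higher and 19 lower, with 5.21% and 2.68% of all features and 14.4% and 6.37% of the 6089. Median member differences were 0.63 and 0.53, against 0.36 and 0.12 over the 6089 features. Libraries did not overlap in 48 of the 73 and 37 of the 80 higher members (2.26% and 2.68% of all features, 8.1% and 5.8% of the 6089). In 40 members bulk was higher than both cultured cortical groups, against 1.23% of all features and 3.48% of the 6089.

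Scaling moved these splits as well. Against pipette neurons the counts were 74 higher and 19 lower with TMM scaling, beside 13.2% and 6.21% of the 6089 features. With DESeq2 size factors they were 54 and 33 (7.92% and 14.4%), and outside each library's 50 top features 101 and 14 (19.4% and 4.96%). Against cultured TIVA neurons they were 56 and 5 with TMM scaling (7.65% and 1.17%). There they were 55 and 3 with DESeq2 size factors (7.28% and 0.953%), and 51 and 12 outside the 50 top features (5.83% and 3.47%). By level, 28.0% of the members at 1000 CPM or more were higher in bulk than in cultured cortical pipette neurons, against 21.6% of all features at that level. The shares were 30.4% and 15.9% from 200 to 1000 CPM, 32.3% and 15.1% from 50 to 200 CPM, and 46.7% and 12.7% below 50 CPM, where there were 15 members.

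The bulk comparison is also given by the cortical class of a member. Bulk was higher than cultured cortical pipette neurons in 22 of the 76 members higher in cortical tissue (28.9%), 35 of the 112 between (31.2%) and 23 of the 63 lower members (36.5%). It was lower by 1 or more in 12, 6 and 1 of them, and the median bulk difference was 0.05, 0.68 and 0.78. These class differences were not tested, and the 6089 features were not sorted into the same classes. These comparisons share no library, and both differences of 1 or more were met by 0.461% of all features and 1.66% of the 6089. The cortical classes differed in level: the median member of the higher class had 331 CPM in hippocampal tissue TIVA neurons, that of the lower class 171 CPM. In cortical tissue their medians were 557 and 3.15 CPM, and in bulk hippocampus 168 and 79.6 CPM.

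**Figure D5:**
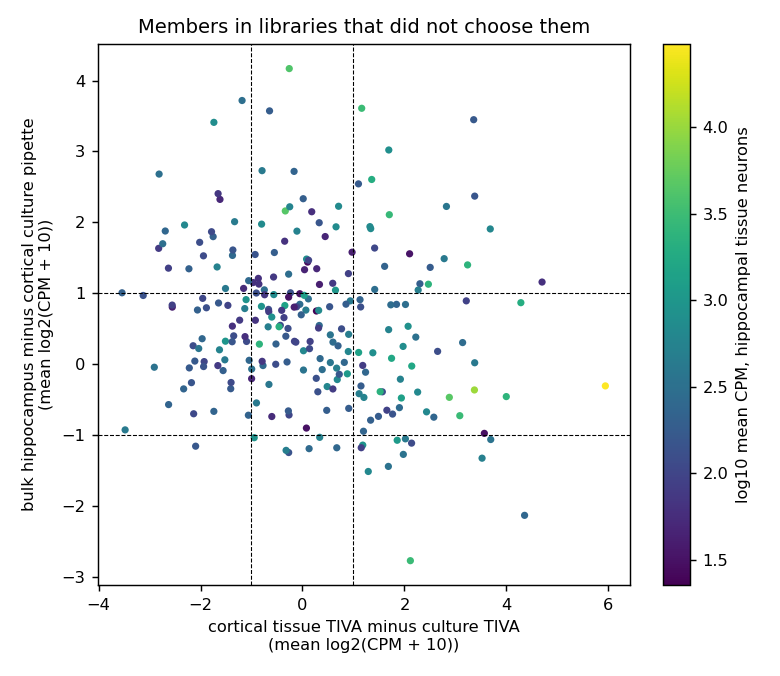
Each of the 251 members by its cortical tissue minus culture difference among TIVA neurons (horizontal axis) and its bulk hippocampus minus cultured cortical pipette difference (vertical axis), both in mean log2(CPM + 10), coloured by the log10 of its mean CPM in hippocampal tissue neurons. Members lie on all sides of the dashed lines at −1 and 1, and the most abundant member is the point farthest to the right, at 5.94.

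The member with the largest bulk excess over cultured cortical pipette neurons, 4.17 on the log2 scale, had its highest levels in hippocampal tissue neurons. It was chosen after its values were seen. Bulk hippocampus was at 512, 1292 and 747 CPM, and cultured cortical neurons at 38.7, 6.03, 8.82 and 258 CPM by pipette and 96.9, 83.0, 199 and 29.1 CPM by TIVA. The cortical tissue neurons, at 179.5 and 23.2 CPM, lay in the range of the cultured cortical cells and below every bulk library. Hippocampal tissue neurons were at 1760, 3776, 3230, 2345 and 3103 CPM by TIVA and at 9894, 4086 and 2509 CPM by pipette. Cultured hippocampal neurons were lower, at 658, 211, 271 and 1539 CPM by TIVA and 82.2, 75.5 and 204 CPM by pipette.

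Within hippocampus, bulk tissue was set against the cultured and the single tissue neurons. Because those neurons chose the members, with tissue above culture by the rule, the counts are a description. In 137 of the 251 members the bulk mean lay above both cultured means and below both tissue means. In 16 it was above both tissue means, and in 4 below both cultured means. Other features were not counted in this way, so the place of bulk is not a result about members. Bulk exceeded both cultured groups by 1 or more in 77 members (1.78% of all features, 4.98% of the 6089), and both tissue neuron groups exceeded bulk by 1 or more in 63 (0.506% and 2.38%). All 3 bulk libraries had 10 CPM or more of 231 members, and no member was below 1 CPM in all of them. No share of other features was taken at these levels.

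Single tissue neurons did not all hold the set. At 10 CPM or more, 172 members were found in all 8 hippocampal tissue neurons, 43 in 7, 20 in 6 and 16 in 5 or fewer. Other features were not counted in this way, so the spread is not particular to members. The count of members at this level was 242, 235, 243, 236 and 211 in the TIVA neurons and 238, 232 and 235 in the pipette neurons. Among TIVA tissue neurons 46 of the 250 members that reached 50 CPM in some cell were below 1 CPM in another (18.4%), against 29.7% of those among the 6089 features that reached 50 CPM. Among pipette tissue neurons it was 19 of 246 (7.72%), against 20.6% counted the same way. These libraries chose the members, and the 6089 features were not matched to them for level. The lower shares of members are therefore a description only. Thinned to a common 5.30 M reads, a hippocampal tissue neuron still held 240 to 251 members with 1 read or more. A cultured hippocampal neuron held 240 to 251 and a bulk library 249 to 251. A cultured cortical neuron held 225 to 250 and a cortical tissue neuron 208 or 212. Of all features, hippocampal tissue neurons held a mean of 9879 (TIVA) and 9369 (pipette), and cortical tissue neurons 7357. Cultured means were 15130 (TIVA) and 18410 (pipette) for hippocampus, and 17590 (TIVA) and 13850 (pipette) for cortex. The bulk mean was 16650. The highest tissue neuron held 10744 features, and the lowest cultured or bulk library 12308. The part of this gap in the differences between tissue and culture was not tested.

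The identifiers of members were like those of other well-expressed features. Several isoform identifiers were joined in 169 members (67.3%), against 68.9% of the 6089 features and 41.8% of all rows. Members joined a mean of 2.68 identifiers and the 6089 features 2.79. In the order of the files, 8 members stood next to another member, as 4 pairs of neighbours, and the others had no member beside them.

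Membership itself depended on the libraries and the scaling. Of the 251 members, 110 met the rule in each of 15 repeats that left out 1 hippocampal neuron, and 139 met it under each of the 3 other scalings. Both held for 85. The set numbered 151 to 856 under those scalings.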

How the data were processed

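Per the submitters' processing notes, CASAVA 1.8.1 and HTSeq were used with the mm9 genome. For the aligner, strand and overlapping features, the settings were not given in the sources used here. The deposited files hold raw read counts per feature, made by the authors after 3 rounds of linear RNA amplification, which can widen differences between single cells. Of the 5 summary lines, which name no feature and were left out, reads outside features held 15.8% to 81.1% of counted reads.

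CPM and log2(CPM + 10) were computed here with Python 3.11.15, and group means were taken over libraries. The pseudocount of 10 CPM shrinks differences of low features. Library scaling factors for alternatives came from edgeR 4.0.16 (TMM) and DESeq2 1.42.0 in R 4.3.3. Neither was used for a test: a group is a set of single cells of unnamed animals or cultures and counts as 1 sample. A difference of 1 is a 2-fold change and is called higher or lower by size alone. Whether libraries of the groups overlap is given beside it. Libraries of a group differed beyond sampling noise (lowest chi-square per degree of freedom 48.6), so none were merged.

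The features at 10 CPM or more on average in both hippocampal tissue neuron groups serve as background, since members had to be expressed there. The members, and all lists and alternatives, were chosen with earlier results of these data known. The 2 leading members were those with 10 or more reads in every hippocampal tissue neuron and no overlap in either collection, ranked by the smaller difference. The 2 lowest and 2 highest cortical members had no overlap and at least 10 reads in each library of the cortical TIVA group that was higher. Alternatives were pseudocounts of 1 and 5 CPM, 3 other scalings, a mean of 5 CPM or more, summed counts, a difference of 2 and leaving out each library. Intervals and limits on a count of 0 cover counting error only. The script that applies the rule was tested on simulated data, which checks the code and does not estimate false members in these data.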

Additional observations from a re-analysis of the deposited data

Results flagged for a closer look

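In groups of 4 or 5 libraries, a library far from the others by Dixon's criterion was found in 10 of 48 groups and measures examined. The criterion served only as a flag. Its nominal rate of about 1 in 20 assumes normal values and replicates. These libraries are single cells, several measures lie close to 0 and some are related, so 10 of 48 cannot be set against chance. In hippocampal tissue TIVA neurons these were the fifth neuron, with 211 members at 10 CPM or more, the second at 616 CPM of uc008jee.2, and the first at 1110 CPM of uc007vrn.1. In cultured hippocampal TIVA neurons the fourth stood apart at 197 CPM of uc012gga.1:uc009mgs.1:uc009mgt.1. The member with the second highest cortical difference stood apart at 0.715 CPM in 1 cultured hippocampal TIVA neuron, 1.75 CPM in 1 cultured cortical TIVA neuron and 0.0868 CPM in 1 cultured cortical pipette neuron, all close to 0. The fourth cultured cortical TIVA neuron had the fewest members detected at a common depth, 244. Among cultured cortical pipette neurons the second gave 6.57% of reads to members other than the most abundant, and the fourth had 34.0 CPM of uc008jee.2.

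Some members, like other features, moved in opposite directions in the regions. In 9 members every hippocampal tissue TIVA neuron lay above, and every cortical tissue TIVA neuron below, the cultured TIVA neurons of the same region, with differences of 1 or more. The difference between regions was not tested. These are 9 of the 75 members without overlap in hippocampus, and 22 of the 75 went the same way in cortex. Among the 466 features at 10 CPM or more in hippocampal tissue neurons that were higher there without overlap, 74 went the opposite way in cortex and 103 the same way. Opposite movement was thus no more common among members than among these features. The member uc012gga.1:uc009mgs.1:uc009mgt.1 is one of the 9, with a cortical difference of −3.48. Its place there rests on a narrow margin in hippocampus. The lowest tissue TIVA neuron was at 198.7 CPM and the highest cultured TIVA neuron, flagged above, at 197.2 CPM.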

How the results depend on the processing

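Of 415 values recomputed, 371 stayed within the limit set for them. That limit was 1.5 times the reported count or, for most other values, 1 SD between libraries, which is wide for single members. Where members were chosen again, the percent of them higher in cortical tissue was held to a binomial interval over members. That interval treats members as independent, which they are not. Among differences of 1 or more, that of uc007vrn.1 in cortex changed sign, to 0.81 without the second cortical tissue neuron, and was −3.55 without the first. The members' median cortical difference, 0.04, also changed sign, to −0.21 at a pseudocount of 1 CPM and −0.16 outside the 50 top features. The set numbered 408 with TMM scaling, 856 with DESeq2 size factors, 151 over reads outside the 50 most abundant features, 506 from summed counts and 39 at a difference of 2. With DESeq2 size factors the cortical counts were 138 higher and 39 lower, with a median of 1.33, and members higher in bulk than cultured hippocampal neurons numbered 51. Members higher in hippocampal tissue neurons than in bulk numbered 103 with TMM and 158 with DESeq2 size factors. At a difference of 2 the counts were 36 higher and 24 lower in cortex (3.53% and 15.3% of the 6089 features). At that limit 13 and 23 members were higher in bulk than in cultured cortical TIVA and pipette neurons. Another 2 counts there were 8 higher in bulk than cultured hippocampal neurons, and 6 higher in tissue neurons than bulk. For the counts with bulk in this paragraph, shares of other features under the same setting are not given. Those counts therefore show only how the member numbers moved. Outside the 50 most abundant features the members' mean share was 8.41% and 9.94% in hippocampal tissue by TIVA and pipette, 4.74% and 3.64% in hippocampal culture, 8.27% in cortical tissue, and 5.03% and 4.81% in cortical culture. The cause of these shifts was not tested.

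With 1 library left out at a time, the set ranged from 211 to 302, members higher in cortical tissue from 68 to 85, lower from 55 to 93, and their median from −0.32 to 0.18. Members higher in bulk ranged from 55 to 101 against cultured cortical TIVA neurons, 74 to 103 against pipette neurons and 68 to 96 against hippocampal culture, and members higher in tissue neurons than bulk from 48 to 78. The mean share ranged from 13.1% to 14.0% and 17.4% to 18.7% in hippocampal tissue by TIVA and pipette, 2.40% to 3.56% and 4.33% to 4.98% in hippocampal culture, 18.1% to 19.9% in cortical tissue, 3.10% to 4.32% and 5.92% to 7.24% in cortical culture, and 6.31% to 7.41% in bulk.

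No paired analysis was possible because replicate numbers follow record order and pair no libraries. The 2 cortical tissue neurons limit every cortical statement. The approximate limit for a count of 0 there, 0.380 and 0.567 CPM, covers counting error only.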
